A study of Mus musculus with 4 samples.

Results

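The 10 genes described here are the H3.3 histone genes H3f3a and H3f3b and the genes of the proteins that carry and deposit H3.3: Daxx, Atrx, Hira, Ubn1, Ubn2, Cabin1, Asf1a and Asf1b. They were chosen by gene symbol, and all 10 were found among the 24054 gene rows of the deposited count tables. RNA was sequenced from mouse embryonic stem (ES) cells, with 1 library of wild-type cells and 3 libraries of Morc3 rescue cells. The study concerns the ATPase protein Morc3 in the silencing of endogenous retroviruses (ERVs) and its relation to Daxx and H3.3. The comparison of rescue with wild-type cells addresses whether the RNA of the H3.3 deposition machinery in cells with restored Morc3 is at its wild-type level.

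H3.3 is the histone H3 variant that is put into chromatin outside of DNA replication as well as during it, while the canonical H3 proteins are deposited behind the replication fork. Daxx binds H3.3 together with H4 and works with the ATPase Atrx at heterochromatin, repeats and telomeres, and the HIRA complex places H3.3 at transcribed genes and regulatory regions. Asf1a and Asf1b hold H3-H4 dimers and hand them over to the depositing chaperones.

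The wild-type cells were of the line wt26. The rescue cells were the single clones T131-3C, T131-3D and T131-3M, called clones 3C, 3D and 3M here. All 3 came from 1 Morc3 ko line, into which a Morc3 construct had been brought with the PiggyBac transposon and puromycin selection, so the clones share the history of that line. All cells were grown without feeders on gelatin in medium with serum and LIF, and carried no other labelled treatment. The Morc3 ko cells were not analysed here, so a difference between rescue and wild type cannot be told apart from one that the ko line already had.

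H3f3a and H3f3b encode the same protein from different DNA. Their coding sequences, of 411 bases with the stop codon, differ at 95 bases, of which 81 are at the third codon position, and the 136 residues are identical. The first coding exons are shown because the differences spread along them let short reads from these exons tell both genes apart. They are a small part of the longest transcripts, which have 2841 bases for H3f3a and 2514 for H3f3b. Capitals mark the 25 of 128 bases that differ between the genes. The stretches lie at chr1:180811799-180811926 for H3f3a and at chr11:116023882-116024009 for H3f3b in GRCm38, both on the minus strand and written 5′ to 3′ along the coding strand from the start codon, with exons taken from the GENCODE M21 annotation.
H3f3a: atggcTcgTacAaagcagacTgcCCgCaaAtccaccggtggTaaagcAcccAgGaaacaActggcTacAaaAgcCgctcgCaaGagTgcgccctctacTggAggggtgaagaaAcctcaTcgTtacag
H3f3b: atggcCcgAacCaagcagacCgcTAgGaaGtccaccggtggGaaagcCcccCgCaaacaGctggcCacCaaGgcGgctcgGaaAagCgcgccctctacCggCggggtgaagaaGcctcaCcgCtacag

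The longest stretch that the transcripts of both genes share without a difference is 23 bases, shorter than the 50-base reads. Other copies come closer. Of the 50-base windows of the longest transcript, 16.4% in H3f3a and 8.40% in H3f3b also occur in the transcripts of other, non-overlapping genes, most often H3f3c for H3f3a. Since only uniquely mapped read pairs were counted, such windows leave the levels of both H3.3 genes uncertain. The shares do not measure by how much, since whole read pairs were mapped, and to the genome. Among the other 8 genes, 4.08% of the windows of Ubn2 were shared with other genes, and none of those of Daxx, Atrx, Hira, Ubn1, Cabin1, Asf1a and Asf1b.

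The wild-type library was the deepest, with 18789457 counts on genes, against 13620914 to 15479190 for the clones. It also had the larger share of its read pairs on genes (52.7%, against 45.1% to 47.0%) and the smaller unmapped share (14.5%, against 21.0% to 23.0%). The 8 ES cell markers, such as Pou5f1 and Nanog, summed to 3958 CPM in wild type against 4075 to 4224 CPM in the clones. Single markers differed in direction. Nanog was at 300 CPM in wild type, against 468, 358 and 481 CPM in clones 3C, 3D and 3M. Pou5f1 was at 766 CPM, against 698, 756 and 720 CPM, and Klf4 at 209 CPM, against 180, 247 and 152 CPM. The 8 differentiation markers summed to 6.71 CPM in wild type against 6.84 to 7.79 CPM in the clones. CPM are counts scaled to library size, made comparable here between libraries by the TMM method. The 7 fibroblast markers summed to 32.9 CPM in wild type against 20.4 to 45.0 CPM in the clones, nearly all of it Thy1, and Col3a1, Dcn and Lum were at 0 in every library. The genes of chromosome 14 had a median log2 difference from wild type of 0.34 in each clone, and those of chromosome 13 of 0.48 in clones 3C and 3M and 0.03 in 3D. None of the 10 genes lies on these chromosomes.

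Morc3 itself, the rescued gene, was at 161 CPM in wild type, against 655 CPM in clone 3C, 497 CPM in 3D and 609 CPM in 3M. In the clones, reads of the construct and of the endogenous gene were not separated, so these values can hold both. The clones lay above wild type without overlap, and the log2 fold change was 1.87, with a standard error (SE) of 0.17. Its edgeR quasi-likelihood test with Benjamini-Hochberg adjustment gave an adjusted p of 0.108, which missed the threshold of 0.01. The adjusted p was 8.3e-09 without clone 3D, but 0.0245 without 3C and 0.516 without 3M. The fit takes the spread between samples from the 3 clones and lends it to wild type, which is a single library. An exact permutation test of 3 samples against 1 cannot go below a two-sided p of 0.5.

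None of the 10 H3.3 genes and chaperones passed the adjusted p of 0.01 in edgeR, while 1 of all 13267 genes tested did (0.00754%). DESeq2, which called 0.49% of all genes, called none of the 10 either, and limma-voom called 0 of all genes tested. Of the 10 genes, Atrx was the only one with an unadjusted p under 0.05, which 10.3% of all genes had. The largest difference from wild type was that of Atrx, at 1.30-fold, and the other 9 genes lay between 0.902-fold (Hira) and 1.12-fold (Ubn2). All 3 clones lay above wild type for Atrx, Ubn1 and Ubn2, against 28.7% of all genes, and all 3 lay below it for H3f3a, H3f3b, Daxx and Hira, against 28.4% of all genes. Thus 7 of the 10 genes had every clone on the same side of wild type, against 57.1% of all genes, and for Cabin1, Asf1a and Asf1b the clones lay on both sides. The median log2 fold change of the 10 genes was 0.02, beside 0.01 over all genes tested.

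**Figure D1:**
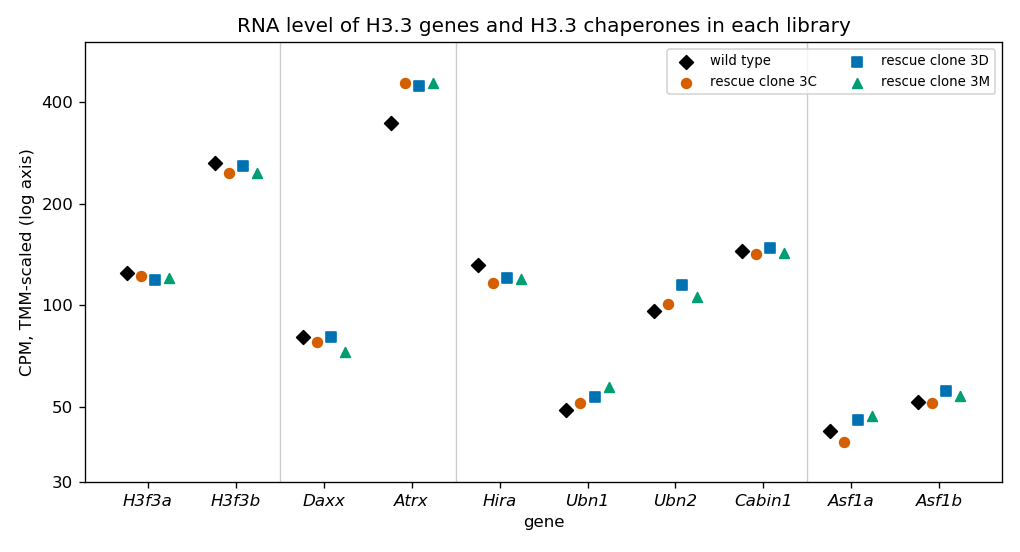
TMM-scaled CPM (log axis) of the 10 genes in the wild-type library (diamonds) and in the clones 3C (circles), 3D (squares) and 3M (triangles), 1 point a library, with vertical lines between the H3.3 genes, Daxx and Atrx, the HIRA complex and Asf1. Atrx is set apart, at 347 CPM in wild type, against 446 to 456 CPM in the clones, while the points of the other genes lie close together.

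H3f3a (chromosome 1, 180802560 to 180813605; all gene positions are in GRCm38) had 2376 counts in wild type, against 1647 in clone 3C, 1727 in 3D and 1868 in 3M, or 124.6 CPM against 122, 119 and 121 CPM. The clones lay close together and just below wild type. Their mean was 120 ± 1.74 CPM (SD, n = 3), and the log2 fold change was -0.05 (SE 0.07, 95% interval -0.22 to 0.12, edgeR adjusted p 0.842).

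H3f3b (chromosome 11, 116021961 to 116026039) had 5021 counts in wild type, against 3312, 3767 and 3813 in the clones, or 263 CPM against 246, 259 and 246 CPM. Again every clone lay below wild type, with 3D nearer to it than the other clones. The clone mean was 250.2 ± 7.50 CPM, with a log2 fold change of -0.07 (SE 0.07, 95% interval -0.24 to 0.09, edgeR adjusted p 0.737). Together, both genes gave 388 CPM in wild type, against 368, 378 and 367 CPM in the clones, a clone mean of 0.956 of wild type. H3f3b gave 67.9% of that sum in wild type, against 66.8%, 68.6% and 67.1% in the clones, so the split between both sources of H3.3 differed by less than the clones did among themselves.

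Daxx (chromosome 17, 33909404 to 33915590), the chaperone that recognises H3.3, had 1541 counts in wild type, against 1049, 1169 and 1131 counts in the clones. These were 80.8 CPM against 77.8, 80.3 and 73.0 CPM. Clone 3D was almost at wild type, and 3M was the lowest. The clone mean was 77.1 ± 3.73 CPM, and the log2 fold change of -0.07 (SE 0.09) had a 95% interval of -0.29 to 0.15 (edgeR adjusted p 0.822). Thus a fall to below 0.818 of the wild-type level or a rise to above 1.11 times that level lay outside the interval. The genes whose pattern over the 4 libraries was most like that of Daxx, by the distance between centred log2 CPM values, were Kbtbd8, Lyar and Ppia, with distances of 0.013, 0.018 and 0.019. Such a pattern was common, since 641 of the 5253 genes with a mean log2 CPM of at least 5 lay within 0.1 of Daxx.

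Atrx (chromosome X, 105797615 to 105929372), the ATPase partner of Daxx, had 6615 counts in wild type, against 6127, 6485 and 7064 counts in the clones, although the clone libraries were smaller. It was at 347 CPM in wild type, against 454, 446 and 456 CPM in the clones. The clones lay together and well above wild type, with a spread between them (1.23% of their mean) as small as counting error (1.24%). The mean was 452 ± 5.56 CPM, and the log2 fold change was 0.38 (SE 0.06, 95% interval 0.24 to 0.53). Its edgeR adjusted p of 0.188 did not pass, with an unadjusted p of 0.00081 from the same fit. By size, 79.0% of all genes had a smaller log2 fold change in either direction.

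Whether Atrx was called depended on clone 3D. Without that library, its log2 fold change was 0.39 with an edgeR adjusted p of 0.0032, and Atrx was then 1 of 420 genes called (3.17% of those tested), whereas the adjusted p was 0.183 without 3C and 0.724 without 3M. DESeq2 gave Atrx an adjusted p of 0.040, which passes 0.05 but not 0.01. Across these fits the log2 fold change of Atrx stayed between 0.38 and 0.39.

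The difference of Atrx was not seen in the genes around it. Over the 9 tested genes that start within 1 Mb, the median log2 differences from wild type were -0.02, -0.03 and -0.0011 in the clones, and over the 451 tested genes of the X chromosome they were -0.02, 0.01 and 0.04. Between 0.045% and 0.057% of the read pairs on Atrx were antisense. Atrx is a long transcript with few G and C bases: its GC content is 39.5%, and 4.51% of all genes tested have a lower one. The 1317 genes with the lowest GC content had a median log2 fold change of 0.04, and the genes spanning at least 100 kb one of 0.01. With the trend on GC content and transcript length removed from each clone's differences, the mean log2 difference of Atrx was 0.34. The share of unmapped read pairs also differed between wild type and the clones, as given above, and its part in the difference of Atrx was not tested. In RNA from many cells, more cells with a transcript and more of it per cell cannot be told apart.

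**Figure D2:**
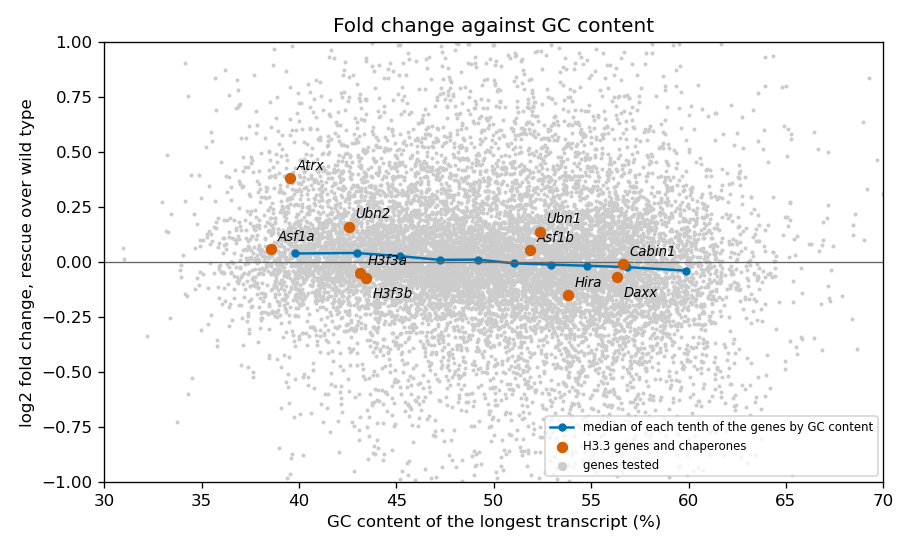
Log2 fold change, rescue over wild type, against the GC content (%) of the longest transcript for all genes tested (grey; genes outside the axes are not drawn) and for the 10 genes (orange), with medians of 10 equal groups of genes by GC content (blue line). The line falls from 0.04 at low to -0.04 at high GC content, while Atrx lies at 0.38 and the other 9 genes between -0.15 and 0.16.

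Within each library, Atrx was also compared with its partner Daxx. The counts of Atrx were 4.29 times those of Daxx in wild type (95% exact binomial interval 4.06 to 4.54). In clone 3C the ratio was 5.84 (5.47 to 6.24), in 3D 5.55 (5.21 to 5.91) and in 3M 6.25 (5.86 to 6.66). No clone's interval overlapped that of wild type, and the mean log2 ratio was 0.45 higher than in wild type, with an SD of 0.09 between clones. These intervals cover counting error only, and a ratio within a library does not depend on how the libraries are scaled. It can still depend on GC content, which was 39.5% for Atrx and 56.3% for Daxx. With the trend on GC content and transcript length removed, the mean log2 differences were 0.34 for Atrx and -0.02 for Daxx. The ratio itself was not adjusted.

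**Figure D3:**
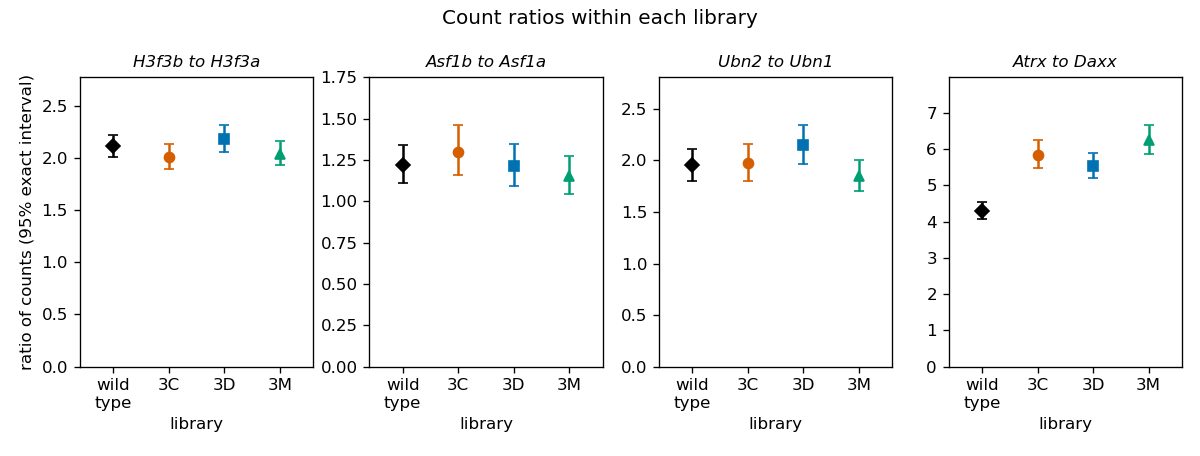
Ratio of counts of paired genes within each library, with 95% exact binomial intervals for counting error, in wild type and each clone. The intervals of H3f3b to H3f3a, Asf1b to Asf1a and Ubn2 to Ubn1 overlap between wild type and every clone, and those of Atrx to Daxx lie above the wild-type interval in all 3 clones.

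Hira (chromosome 16, 18876750 to 18970309) encodes the WD-repeat subunit after which the HIRA complex is named. It had 2515 counts in wild type, against 1569, 1751 and 1858 counts in the clones. It was at 132 CPM in wild type, against 116, 120.3 and 119.9 CPM in the clones, which lay close together and below wild type. The clone mean was 119 ± 2.17 CPM, and the log2 fold change of -0.15 (SE 0.07, 95% interval -0.32 to 0.02) had an edgeR adjusted p of 0.533.

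Ubn1 and Ubn2 encode ubinuclein subunits of the complex. Ubn1 (chromosome 16, 5050057 to 5086289) was at 49.1 CPM in wild type, against 51.3, 53.6 and 57.3 CPM in the clones. Ubn2 (chromosome 6, 38433925 to 38512763) was at 96.0 CPM in wild type, against 101, 115 and 106 CPM in the clones. Every clone lay above wild type for both, by margins that varied several-fold between clones. Their log2 fold changes were 0.14 (SE 0.10) and 0.16 (SE 0.10), with 95% intervals that included 0 and edgeR adjusted p of 0.665 and 0.603. The ratio of Ubn2 to Ubn1 was 1.95 in wild type, against 1.97, 2.15 and 1.85 in the clones, which lay on both sides of wild type.

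Cabin1 (chromosome 10, 75646110 to 75764357), the large scaffold subunit, was at 145 CPM in wild type, against 142, 148 and 143 CPM in the clones, which lay around wild type. Its log2 fold change of -0.01 (SE 0.07, 95% interval -0.18 to 0.16, edgeR adjusted p 0.980) was the smallest of the 10 genes. The 4 subunits of the HIRA complex thus did not share a direction, and none passed the test.

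Asf1a (chromosome 10, 53596961 to 53609225), which works with HIRA, was at 42.4 CPM in wild type, against 39.5, 45.8 and 46.9 CPM in the clones. Clone 3C lay below wild type and the others above it. Its spread between clones, 9.05% of the mean, was the widest of the 10 genes, and its log2 fold change was 0.06 (SE 0.13, 95% interval -0.25 to 0.37, edgeR adjusted p 0.902). Asf1a lies across from Mcm9, which is transcribed from the other strand, and antisense read pairs were 9.11% of those on Asf1a in wild type, against 7.36% to 11.0% in the clones. These were kept out by the strand-specific column. For the other 9 genes under 0.5% were antisense in every library. In GENCODE M21, Hira overlaps Gm28539 and Ubn2 overlaps Mir7670 on the same strand, which that column does not separate. The effect of these overlaps on the counts was not tested.

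Asf1b (chromosome 8, 83955694 to 83970195), the form linked to dividing cells, was at 51.7 CPM in wild type, against 51.4, 55.7 and 54.1 CPM in the clones. The clones lay on both sides of wild type, with a log2 fold change of 0.06 (SE 0.09, 95% interval -0.17 to 0.29, edgeR adjusted p 0.865). The ratio of Asf1b to Asf1a was 1.22 in wild type, against 1.30, 1.21 and 1.15 in the clones, a mean log2 difference of 0.00075 with an SD of 0.09 between clones.

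**Figure D4:**
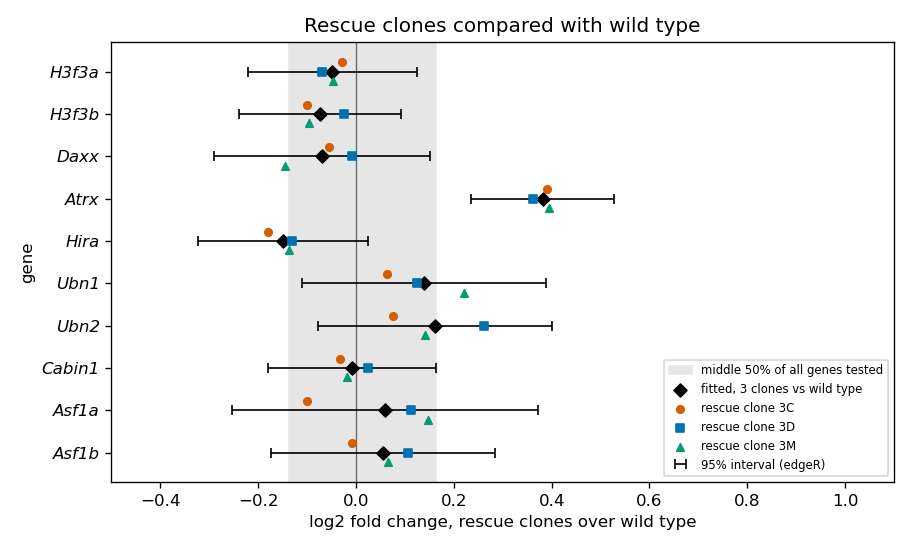
Log2 fold change of the 10 genes, rescue clones over wild type, as fitted by edgeR (black diamonds, bars are 95% intervals) and for each clone against wild type (coloured points); the grey band holds the middle 50% of all genes tested, from -0.14 to 0.16. The interval of Atrx, 0.24 to 0.53, lies above 0, and those of the other 9 genes include it.

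The 10 genes had between 533 and 7064 counts in a library, and the 95% intervals reached between 0.15 and 0.31 to each side of the log2 fold change. All 10 intervals excluded a log2 fold change of 1 in either direction, and 9 excluded one of 0.5, with Atrx the exception. The spread between clones had a median of 3.50% of the mean for these genes, beside 9.03% for all genes tested. Each of the 10 genes had a higher mean CPM than at least 67.7% of all genes. The log2 fold change was under 0.25 in size for 9 of the 10 genes and for 67.2% of all genes.

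Levels between genes were compared per length, as TPM, counts divided by the merged exon length of each gene and scaled to the same total in every library. H3f3b was the highest of the 10 genes, with 359 TPM in wild type, against 338 ± 7.58 TPM in the clones, followed by H3f3a with 144 TPM and 138 ± 2.91 TPM. Thus H3f3b had 2.49 times the TPM of H3f3a in wild type, against 2.37 to 2.57 times in the clones. By the longest transcript the ratio was 2.39 in wild type and 2.35 for the clone mean. The windows shared with other genes, 16.4% in H3f3a and 8.40% in H3f3b, also leave this ratio uncertain. Daxx followed with 104 TPM in wild type, against 98.4 ± 4.11 TPM in the clones, and Asf1b with 89.8 and 92.5 ± 3.29 TPM.

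In the middle of the order, Hira was at 86.1 TPM in wild type, against 77.0 ± 1.29 TPM in the clones, and Atrx at 64.7 and 83.6 ± 1.67 TPM, so that Atrx was below Hira in wild type and above it in the clones. Asf1a was at 47.3 and 48.8 ± 4.37 TPM and Cabin1 at 48.5 and 47.8 ± 0.657 TPM. The lowest were Ubn1, with 24.1 and 26.3 ± 1.54 TPM, and Ubn2, with 18.2 and 20.1 ± 1.19 TPM. By merged exon length, the neighbours Daxx and Asf1b, Hira and Atrx, and Asf1a and Cabin1 overlapped over the 4 libraries, and the other neighbours did not. The order depended on the length used. By the longest transcript instead of the merged exons, Atrx was at 107 TPM in wild type, against 137 TPM in the clones. It was above Daxx, with 95.4 and 90.1 TPM, and above Hira, with 98.6 and 88.1 TPM. Atrx and Hira then did not change places. In the clones Atrx was then also above H3f3a (133 TPM), and Asf1b (93.9 TPM) was above Daxx. In wild type Hira was then above both Daxx and Asf1b (91.2 TPM).

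By complex, the 2 H3.3 genes summed to 503 TPM in wild type, against 477 ± 4.72 TPM in the clones. The 4 HIRA complex genes summed to 177 TPM in wild type, against 171 ± 3.84 TPM in the clones, and Asf1a and Asf1b to 137 and 141 ± 7.50 TPM.

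The other genes that supply H3 or move H3.3 nucleosomes were taken from 3 lists, none of whose genes was called by DESeq2 at 0.01. Of the 16 genes of H3 chaperones and histone supply, such as Nasp and the CAF-1 subunits Chaf1a and Chaf1b, none passed the adjusted p of 0.01, and 2 had higher and 1 had lower levels at an unadjusted p under 0.05, which 5.92% and 4.42% of all genes had. The smallest p of this list belonged to Ipo4, an importin that carries histones into the nucleus, and to Dnajc9, a histone-binding heat shock cochaperone. Ipo4 had a log2 fold change of 0.27 (178 CPM in wild type; 222, 209 and 215 CPM in the clones), and Dnajc9 one of 0.39 (40.8 CPM in wild type; 55.5, 49.3 and 56.2 CPM in the clones). Both lie on chromosome 14. The 1 gene with lower levels, named after its value was seen, was Rbbp4, a histone-binding WD-repeat protein, with a log2 fold change of -0.17. The median log2 fold change was -0.0046 for the whole list and -0.04 for the 14 genes off chromosomes 13 and 14.

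Of the 10 genes of FACT, Spt6, chromatin remodelers and H3.3 readers, none passed. At an unadjusted p under 0.05, 5.92% of all genes were higher, and 1 gene of this list was. This was Supt16, the large subunit of the histone chaperone FACT, with a log2 fold change of 0.33, also on chromosome 14. Zmynd11, a reader of H3.3 trimethylated at lysine 36, had the second smallest p of this list, with a log2 fold change of 0.49 (SE 0.29), and lies on chromosome 13. Without clone 3D, in which the genes of chromosome 13 were near wild type, edgeR called 3 of the 10 genes, Supt16, Zmynd11 and Dek, the last named after its value was seen, against 3.17% of all genes, and all 3 lie on chromosomes 13 and 14. The median was 0.03 for the list and -0.0020 for the 7 genes off both chromosomes.

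Of the 13 genes in the list of replication-dependent H3, to which the centromeric H3 gene Cenpa was added, 11 were tested and none passed. At an unadjusted p under 0.05, 5 were higher and 0 lower, against 5.92% and 4.42% of all genes. All 5 lie on chromosome 13, where the Hist1 cluster is, as do 9 of the 11 genes tested. Hist1h3g and Hist1h3b had the smallest p, with log2 fold changes of 0.35 and 0.37, and the others, named after their values were seen, were Hist1h3a, Hist1h3d and Hist1h3f, between 0.21 and 0.31. The median was 0.10 for the list, and 0.09, 0.23 and 0.16 for 3C, 3D and 3M in turn, while the genes of chromosome 13 as a whole had a median of 0.03 in 3D. Apart from Cenpa, these genes are near-identical copies, so their counts are uncertain, to an extent not measured here. How much the shift of chromosomes 13 and 14 contributes to these lists was not tested further.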

How the data were processed

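Total RNA of 1 wild-type and 3 Morc3 rescue cultures was depleted of rRNA and sequenced as 50-base read pairs from a directional library kit. According to the labels and the study's methods, the authors ran STAR against mm10 and deposited its unnormalized counts per gene, which take uniquely mapped read pairs, for either strand and both together. Their gene annotation is not given in the sources. The reverse-strand counts were used, and rows that name no gene stayed out. Such rows held 47.3% of the read pairs of the wild-type library, against 53.0% to 54.9% for the clones.

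The test was that of edgeR 4.0.16 in R 4.3.3 (quasi-likelihood test, TMM scaling, filterByExpr filter, both groups in 1 fit) at the study's adjusted p of 0.01. The SE is the log2 fold change divided by the root of its F statistic. A prior count of 2 was used for log2 CPM. Nothing in the labels pairs the libraries. No pair of clones was a copy, with chi-square values per gene between 6.98 and 10.6, and clones of 1 line may vary less than separate cultures would. The steps were tested on simulated counts. Lengths, GC content and sequences came from GENCODE M21, and gene positions from RefSeq of GRCm38.p6 (13169 tested genes) or GENCODE.

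All 10 genes, Morc3, the 2 genes of each list with the smallest p and the 3 genes nearest to Daxx are named. The genes, lists and tests were chosen with earlier results of these data known. The alternatives tried were library totals, DESeq2 size factors, the unstranded column, TMM without genes over 1% of the counts, other low-count filters, DESeq2 1.42.0, limma-voom (limma 3.58.1), edgeR's legacy method, the longest transcript for length, windows of 2 Mb and each clone left out.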

Additional observations from a re-analysis of the deposited data

Results flagged for a closer look

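The antisense share of Morc3 read pairs was higher in the clones than in wild type, with the 95% exact binomial interval of every clone above that of wild type. Of its read pairs, 18.2% in clone 3C, 21.7% in clone 3D and 19.4% in clone 3M were on the strand opposite to the gene, with 1963, 2001 and 2266 read pairs. In wild type this was 0.228%, or 7 read pairs. These read pairs were not in the column used for the tests, so the Morc3 levels given above do not hold them. For none of the 10 H3.3 genes and chaperones did every clone's interval lie above that of wild type, although some clone shares were higher, such as 11.0% for Asf1a in 3C against 9.11% in wild type. The source of the antisense read pairs was not tested.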

How the results depend on the processing

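Of 120 alternative values of the log2 fold changes of the 10 genes, 116 kept their direction and, where tested, their side of the threshold. Values with the trend on GC content and transcript length removed had no test, so only their direction was compared. Leaving out each clone in turn gave 0 to 1 of the 10 genes called, the 1 being Atrx without clone 3D, and Morc3 was then also called, with an adjusted p of 8.3e-09, as it was by DESeq2, with 4.0e-23. Cabin1 had log2 fold changes between -0.026 and 0.0022 with a clone left out, the positive value being without 3C. With the trend on GC content and transcript length removed, an alternative chosen after seeing the data, Cabin1 was at 0.054 and Asf1a at -0.0088. Both H3.3 genes moved further below wild type. H3f3a was at -0.11 with the trend removed, against -0.05 before, and H3f3b at -0.14, against -0.07. The H3.3 gene sum was not adjusted in this way. The H3.3 gene sum was lower than in wild type by a log2 difference of -0.07 with TMM scaling and of -0.095 with library totals, and was between -0.08 and -0.06 with a clone left out. The median of the H3 chaperone and supply list was between -0.036 and 0.0022 with a clone left out, the lowest value being without 3M. The causes were not tested. No paired analysis was possible because only 1 wild-type library was compared. None of the 10 genes passed an adjusted p of 0.05 in edgeR with all 4 libraries (0 called, 1 at an unadjusted p under 0.05), while Atrx passed it in DESeq2, with 0.040, limma-voom gave Atrx an adjusted p of 0.165 and no fit without a low-count filter or with a stricter one called any of them at 0.01. The half-widths of the 95% intervals, 0.15 to 0.31, are for each gene alone, without adjustment over all genes tested. Passing the adjusted p of 0.01 took more than that, since Atrx, with a log2 fold change of 0.38, was not called with all 4 libraries.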
